A study of Mus musculus with 6 samples.

Results

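The genes described here are 521 protein-coding genes of mouse chromosome 6 in WT and Oct6 KO EpiLCs, taken in 3 stretches by the position of their first base on GRCm39: 339 below 100 Mb (from Samd9l at 3372257 to Gpr27 at 99669264), 143 in the middle (from Hrh1 at 114374478 to Arhgdib at 136899866) and 39 at the far end (from Plekha5 at 140369498 to Bicd1 at 149310384). They are 521 of the 573 protein-coding genes of the chromosome with at least 10 counts in each of the 6 libraries, out of 1107 protein-coding and 3108 counted genes of all kinds on chromosome 6 and 55416 counted genes in the whole series. The stretches were chosen by the KO to WT ratios of these same libraries, since their bounds were drawn where those ratios changed along the chromosome. The ratios themselves, and the counts of genes past a threshold that follow from them, are therefore given as descriptions without a test of the difference between stretches. Of the remaining genes with enough counts, 37 lie between Gpr27 and Hrh1, 5 between Arhgdib and Plekha5, and 10 were left out by name.

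RNA-seq had been performed on total RNA of EpiLCs, the formative cells that mESCs form on leaving naïve pluripotency, with 3 WT and 3 KO libraries described by the submitters as paired biological replicates. WT cells were the parental 46C line, mESCs that carry GFP under control of the neural gene Sox1, and KO cells were 1 clone of that line with a homozygous insertion of 1 base near the start of Oct6 (Pou3f1), made with CRISPR/Cas9. Both were differentiated for 48 h on fibronectin in N2B27 with 1% KSR, bFGF and Activin A, for which the sample labels give 12 and 20 ng/ml and the series text the same figures in µg/ml. All KO libraries came from that clone and all WT libraries from its parental line, so that the loss of Oct6 and any other property of the clone cannot be told apart. Each library held between 10995505 and 14680930 counts on genes, TMM factors ran from 0.974 to 1.017, and Oct6 was counted at 122 to 161 CPM in WT and 127 to 141 CPM in KO libraries, and such counts include transcripts that carry the insertion. Markers of the labelled cells were abundant, the 9 epiblast and formative markers summing to 3574 to 3999 CPM in WT and 3554 to 3721 CPM in KO libraries. Sums of other cell types were low: 48.1 to 53.2 CPM in WT and 69.0 to 98.5 CPM in KO for 4 naïve markers, 31.6 to 39.8 and 22.4 to 24.1 CPM for 3 neural markers, and between 0.274 and 11.5 CPM in any library for the markers of primitive endoderm, mesoderm, trophoblast and fibroblasts. No marker was at 0 in every library, and the part of these sums in the results was not tested. In bulk RNA, fewer cells of a kind and less RNA per cell cannot be told apart.

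Genes that lie next to each other on a chromosome usually differ in function and are regulated one by one through their own promoters and enhancers. Imprinted clusters, where one parental copy is silent, and the Hox clusters, whose genes are switched on in order along the body axis, are known exceptions. Mouse chromosome 6 carries the Hoxa cluster, the imprinted genes around Peg10 and Mest, the Nanog and Dppa3 region, and many housekeeping genes of energy metabolism and RNA processing. The genes left out by name are mostly ones with well studied regulation of their own in pluripotent cells.

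Sequence just upstream of the start site is shown for the genes that departed most from their neighbours, because these are the ones whose ratios the stretch they lie in describes least. For each stretch, the gene farthest below and the gene farthest above the median ratio of the stretch were taken among genes with a mean of at least 3 log2 CPM. Sequences are the 250 bases before the start of the canonical GENCODE M39 transcript, read from GRCm39 5′ to 3′ on the strand of the gene and shortened where they ran into an annotated UTR. CpG dinucleotides are in capitals. The sequence before Scrn1 at chr6:54543546-54543795 (minus strand) lies outside every annotated gene, and that before Bmal2 at chr6:146697291-146697480 (plus strand) ends where the annotated gene begins. That of Cntnap2 at chr6:45036721-45036970 (plus strand) lies within the annotated gene but in no exon. That of Tapbpl at chr6:125208995-125209229 (minus strand) also lies in Vamp1, that of Hebp1 at chr6:135145219-135145468 (minus strand) in Gm66940, and that of Etfrf1 at chr6:145156726-145156856 (plus strand) in Dnai7. The pairs are given from the start of the chromosome to its end, the lowest gene first.
Scrn1: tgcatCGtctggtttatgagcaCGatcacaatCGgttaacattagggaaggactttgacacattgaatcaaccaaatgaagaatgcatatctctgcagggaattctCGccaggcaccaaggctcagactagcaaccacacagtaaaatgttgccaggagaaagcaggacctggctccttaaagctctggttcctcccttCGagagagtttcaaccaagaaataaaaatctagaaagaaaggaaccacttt
Cntnap2: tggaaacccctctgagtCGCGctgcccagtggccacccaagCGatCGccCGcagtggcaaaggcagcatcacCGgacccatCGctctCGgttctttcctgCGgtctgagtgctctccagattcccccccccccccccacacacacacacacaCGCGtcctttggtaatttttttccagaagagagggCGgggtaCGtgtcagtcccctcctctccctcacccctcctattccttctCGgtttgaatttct
Tapbpl: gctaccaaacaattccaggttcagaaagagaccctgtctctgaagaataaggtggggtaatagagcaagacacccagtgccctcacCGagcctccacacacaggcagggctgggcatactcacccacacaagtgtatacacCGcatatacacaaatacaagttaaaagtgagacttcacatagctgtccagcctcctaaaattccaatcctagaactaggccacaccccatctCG
Hebp1: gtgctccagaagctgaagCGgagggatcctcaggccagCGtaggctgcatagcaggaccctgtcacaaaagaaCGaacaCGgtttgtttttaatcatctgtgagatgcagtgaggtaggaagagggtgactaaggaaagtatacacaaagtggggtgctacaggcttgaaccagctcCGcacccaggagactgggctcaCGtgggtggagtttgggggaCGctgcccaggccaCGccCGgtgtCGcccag
Bmal2: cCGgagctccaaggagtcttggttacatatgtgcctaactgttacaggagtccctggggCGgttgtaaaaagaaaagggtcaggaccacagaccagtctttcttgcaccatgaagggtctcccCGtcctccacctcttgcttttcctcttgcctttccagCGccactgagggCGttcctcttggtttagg
Etfrf1: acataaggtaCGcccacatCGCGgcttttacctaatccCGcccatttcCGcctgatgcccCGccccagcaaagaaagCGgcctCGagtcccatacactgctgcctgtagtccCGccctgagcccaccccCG
The CpG count over the full 250 bases was 5 for Scrn1 and 14 for Cntnap2, and 4 for Tapbpl and 10 for Hebp1. It was 11 for Bmal2 and 15 for Etfrf1. These bases include 15 in annotated exons for Tapbpl, 59 for Hebp1, 60 for Bmal2 and 125 for Etfrf1. In each pair the gene farthest above the median had the larger count, but nothing is read from so few genes. Over all members below 100 Mb, the median log2 fold change was −0.54 for the 186 with fewer than 13 CpG and −0.52 for the 153 with 13 or more, 13 being the median of all 12113 protein-coding genes with at least 10 counts in each library. The medians were −0.02 (84 members) and −0.10 (59 members) in the middle and −0.54 (20 members) and −0.45 (19 members) at the far end. The sequences of the 3 stretches had a median GC content of 56.0%, 55.6% and 57.2%, against 56.8% over all 12113. The octamer ATGCAAAT, the sequence that POU factors such as Oct6 bind, was searched on both strands together with the TATA box motif TATAAA, the CCAAT box motif CCAAT and the GC box motif GGGCGG, and none of these motifs holds another. It stood upstream of 3 of 339 members below 100 Mb (0.885%), 2 of 143 in the middle (1.40%) and 0 of 39 at the far end, against 163 of 12113 (1.35%). These 5 genes were Iqub, Gadd45a and Mrpl19 below 100 Mb and Grcc10 and Atf7ip in the middle, with log2 fold changes of 0.59, −0.67, −0.46, −0.50 and −0.13. The TATA box motif was found for 8.85%, 9.09% and 5.13% of members against 7.07% of all, and the spread below 100 Mb was 0.32 for the 30 genes with it and 0.29 for the 309 without. The CCAAT box motif was found for 36.3%, 28.0% and 25.6% of members against 36.9% of all, and the GC box motif for 45.4%, 43.4% and 38.5% against 50.9%. A match of letters is a description and not a binding site.

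The genes at both ends of the chromosome were lower in KO EpiLCs by nearly the same ratio, while those in between kept a ratio close to 1. Ratios are log2 fold changes of KO over WT from edgeR, fitted over all 15746 genes that passed its filter. The median log2 fold change was −0.54 below 100 Mb, a ratio of 0.690, −0.061 in the middle, a ratio of 0.959, and −0.51 at the far end, a ratio of 0.703. For 10710 protein-coding genes on the other autosomes, leaving out chromosome 16 as well, it was −0.0045. Below 100 Mb, 306 of 339 members (90.3%) had a log2 fold change under 0, against 87 of 143 (60.8%) in the middle, 37 of 39 (94.9%) at the far end and 5429 of 10710 (50.7%) elsewhere.

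**Figure D1:**
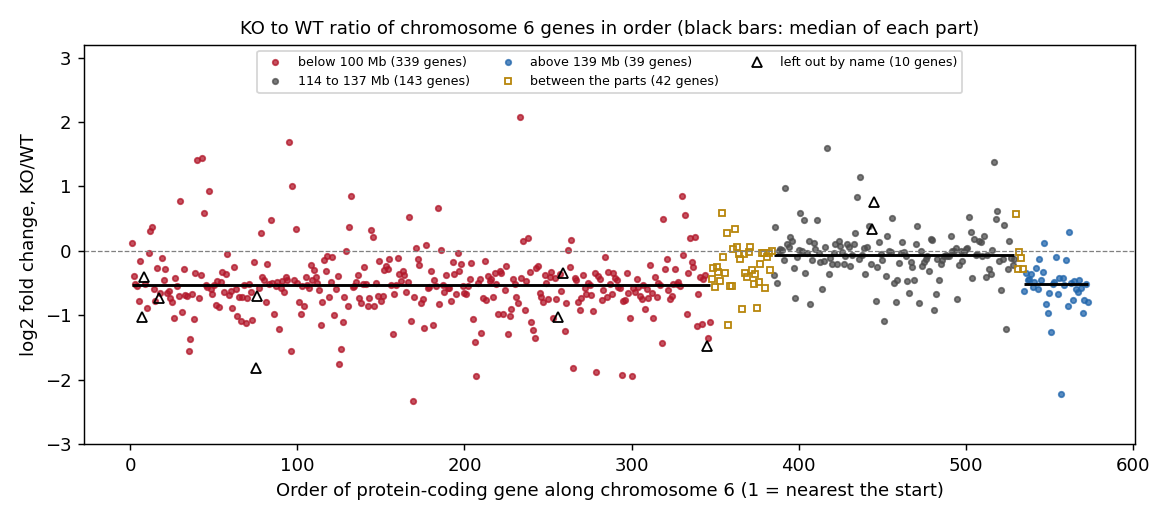
Log2 fold change (KO/WT, y axis) of each protein-coding chromosome 6 gene with at least 10 counts in each library, in gene order (x axis). Points are genes, red, grey and blue for the 3 stretches, squares for the genes between them and triangles for the 10 genes left out by name; black bars mark the medians of −0.54, −0.061 and −0.51.

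Each library gave the same picture. As a share of all counts, members below 100 Mb took 3.36%, 3.40% and 3.50% in WT replicates 1 to 3 and 2.42%, 2.36% and 2.36% in KO replicates 1 to 3. Members at the far end took 0.484%, 0.470% and 0.502% in WT against 0.343%, 0.348% and 0.346% in KO libraries. At both ends, every KO library was below every WT library. Those in the middle took 1.73%, 1.80% and 1.69% in WT and 1.57%, 1.65% and 1.63% in KO, and here too the KO libraries were all below the WT libraries. The KO to WT ratio of the mean shares was 0.697, 0.930 and 0.713 from the start to the end of the chromosome. The share weighs genes with many counts most, and the median weighs all genes alike. In pairs of libraries with the same replicate number, the median log2 ratio was −0.49, −0.52 and −0.58 below 100 Mb, −0.061, −0.045 and −0.052 in the middle, and −0.52, −0.51 and −0.59 at the far end. WT libraries varied too, the median over members at the far end being 0.096 higher in WT replicate 3 than in the mean of the other WT libraries and 0.062 and 0.053 lower in WT replicates 1 and 2.

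**Figure D2:**
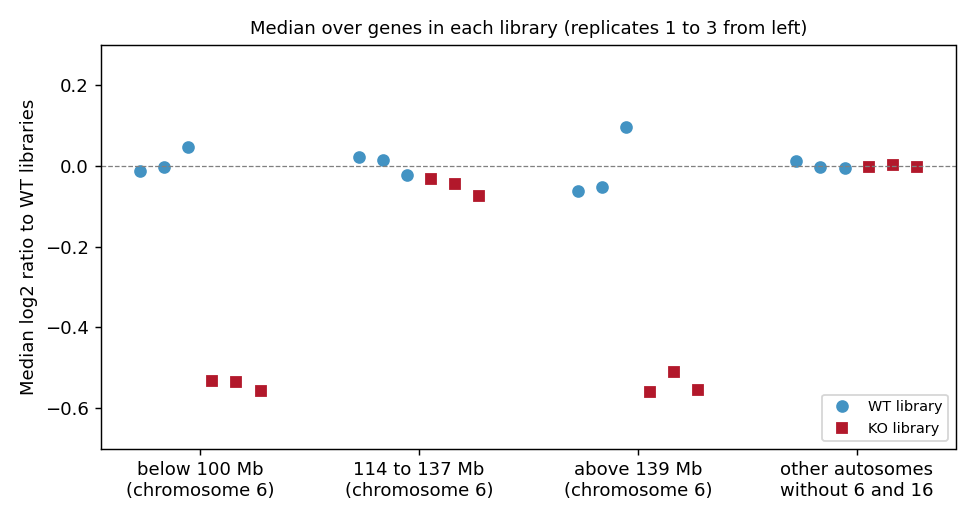
Median over genes of the log2 ratio of each library to the WT libraries (each WT library to the other WT libraries), for the 3 stretches and for the other autosomes. Circles are WT and squares KO libraries; the KO medians lie between −0.56 and −0.51 at both ends and between −0.076 and −0.032 in the middle.

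Along the first stretch the shift was nearly even. In windows of 10 Mb, the median log2 fold change ran from −0.70 (10 to 20 Mb, 15 genes) to −0.45 (0 to 10 Mb, 19 genes), with values between −0.58 and −0.50 in the other 8 windows. The 39 members at the far end fell in a single such window. Between the bounds, the 13 genes from Rybp to Edem1 had a median of −0.34 and 11 of them were under 0. The 24 genes from Rad18 to Sec13 had a median of −0.11, and 20 of them were under 0. By edgeR's test at an adjusted p below 0.1, 9 of the 13 and 7 of the 24 were lower, against 12.5% of all genes tested. None of them was higher, against 11.8% of all genes tested. Edem1, an endoplasmic reticulum protein that helps dispose of misfolded glycoproteins, began at 108805457 with a log2 fold change of −0.55 (SE 0.10), and the next gene with enough counts, the ubiquitin ligase Rad18, at 112592603 with 0.03 (SE 0.10). The members just inside 100 Mb were the low-count genes Eif4e3 and Gpr27 with −1.35 (SE 0.33) and −1.11 (SE 0.30), and the genes just outside were Rybp and Shq1 with −0.44 (SE 0.10) and −0.27 (SE 0.10). Where the middle begins, Tatdn2 and Sec13 just outside had −0.29 (SE 0.10) and −0.01 (SE 0.10), and Hrh1 and Atg7 just inside −0.37 (SE 0.44) and 0.37 (SE 0.14). Where it ends, BC049715 and Arhgdib inside had −0.23 (SE 0.32) and −0.12 (SE 0.16), and Ptpro and Eps8 outside 0.58 (SE 0.38) and −0.28 (SE 0.11). Where the far end begins, Dera and Mgst1 outside had −0.11 (SE 0.11) and −0.28 (SE 0.28), and Plekha5 and Aebp2 inside −0.62 (SE 0.11) and −0.34 (SE 0.09). Mgst1, the last gene before the lowered end, had at most 5.75 CPM in any library, and Plekha5 began at 140369498.

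Single genes scattered around these medians. The gene-wise spread is given as the median absolute deviation from the median, scaled to match an SD. It was 0.30 below 100 Mb, 0.25 in the middle, 0.21 at the far end and 0.27 on the other autosomes. Within 0.25 of the median of their stretch lay 195 of 339 members (57.5%), 93 of 143 (65.0%) and 25 of 39 (64.1%), against 6584 of 10710 genes (61.5%) elsewhere. After the mean squared standard error was taken off the variance, an SD of 0.48, 0.35, 0.37 and 0.37 remained for the 3 stretches and the other autosomes. Beyond 1 from the median stood 24 members below 100 Mb (7.08%), 9 of them lower and 15 higher, 6 of 143 members in the middle, 1 of 39 at the far end and 3.84% of the other genes. A ratio above the median of the middle was held by 37 members below 100 Mb (10.9%) and 2 at the far end (5.13%). A ratio below the median of the first stretch was held by 13 members of the middle (9.09%) and 8.43% of the genes on the other autosomes.

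**Figure D3:**
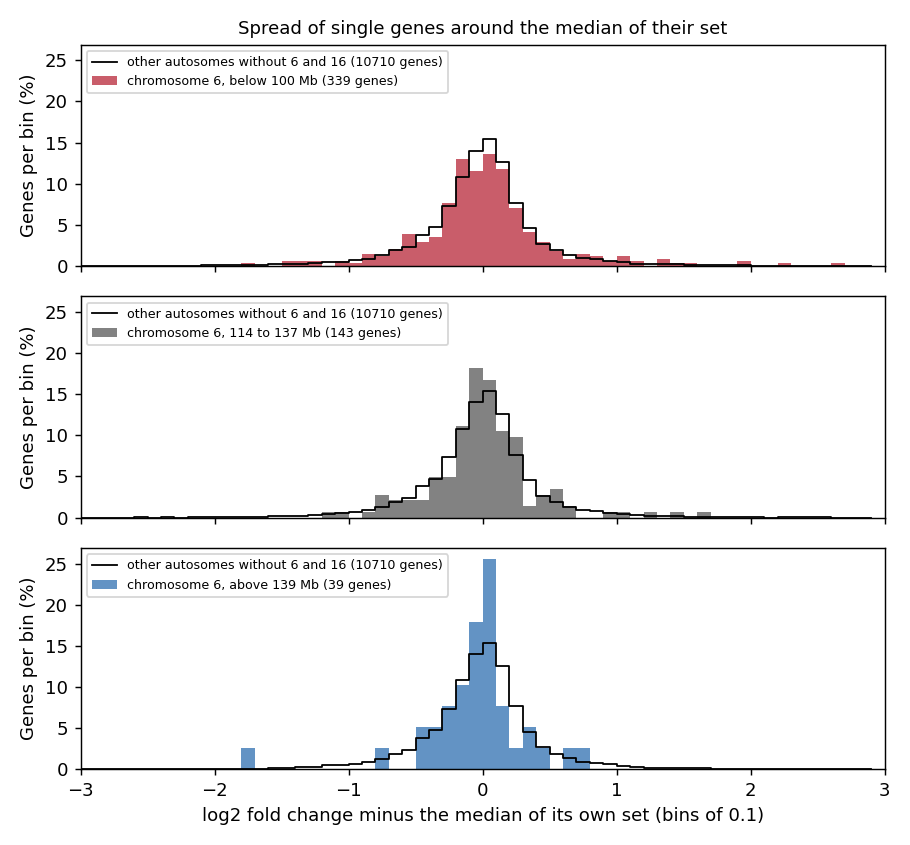
Percentage of genes (y axis) by log2 fold change minus the median of their own set (x axis, bins of 0.1) for the 3 stretches (bars) and for 10710 genes of the other autosomes (black line). The scaled median absolute deviation was 0.30, 0.25 and 0.21 against 0.27. The tails were wider below 100 Mb, with 7.08% of genes beyond 1 against 3.84% on the other autosomes.

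The spread went with the number of counts. When genes were divided at mean levels of 3.81 and 5.76 log2 CPM, the spread below 100 Mb was 0.61 for the 122 members with the fewest counts, 0.30 for 97 and 0.18 for the 120 with the most, and the median standard error of a gene went from 0.24 to 0.13 and 0.10. Over the same classes the spread was 0.45, 0.30 and 0.16 in the middle (54, 32 and 57 members). At the far end it was 0.91, 0.33 and 0.11, over only 5, 13 and 21 members. On the other autosomes it was 0.49, 0.27 and 0.18. The class with the most counts thus had a spread of less than 0.19 in every set. Of the 24 members far from the median below 100 Mb, 20 were in the class with the fewest counts, among them Dnah6 with 2.07 (SE 0.28), Ptn with 1.69 (SE 0.32) and Cadps2 with 1.44 (SE 0.29), which were named after their values were seen. The median itself moved less, at −0.59, −0.54 and −0.52 over the 3 classes below 100 Mb and −0.12, 0.11 and −0.061 in the middle. At the far end, with fewer genes, it was −0.65, −0.67 and −0.48. By exonic length, counting all exons of a gene once, the medians below 100 Mb were −0.54, −0.52 and −0.54 from shortest to longest. By length of the gene on the chromosome they were −0.52, −0.63 and −0.51. At the far end the medians were −0.61, −0.44 and −0.52 by exonic length (6, 9 and 24 genes). By length on the chromosome they were −0.67, −0.49 and −0.58 there (5, 16 and 18 genes). Below 100 Mb, members that overlap an annotated gene on the other strand had a median of −0.54 (180 genes) and those that do not −0.53 (159 genes). The medians were −0.03 (87 genes) and −0.08 (56 genes) in the middle, and −0.47 (25 genes) and −0.57 (14 genes) at the far end. Whether counting used the strand is not given in the sources used here, so the counts of overlapping genes are uncertain.

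**Figure D4:**
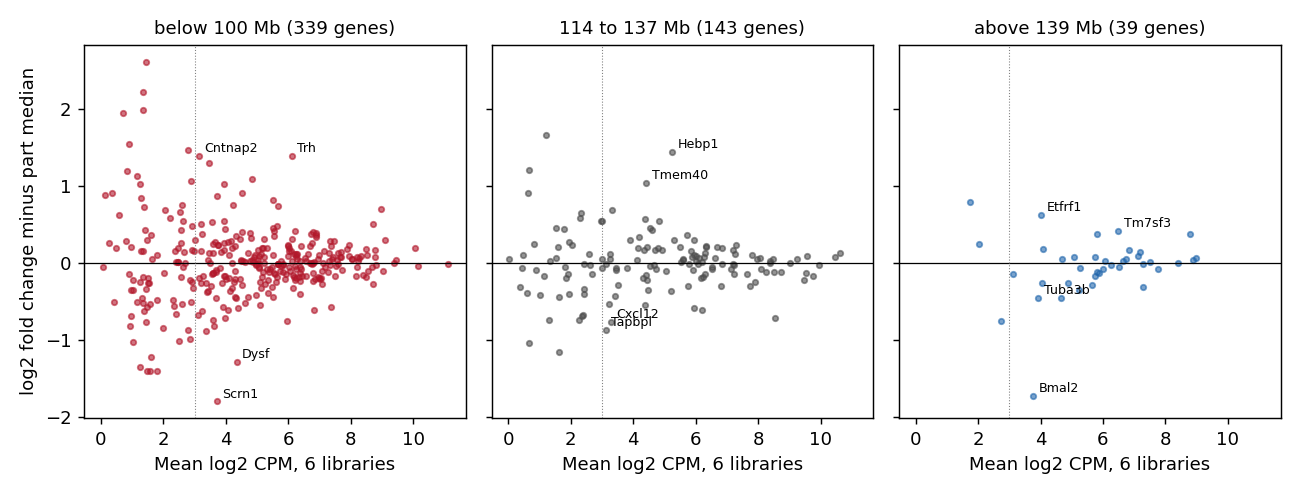
Log2 fold change minus the median of the stretch (y axis) against the mean log2 CPM over 6 libraries (x axis), 1 panel per stretch and 1 point per gene, with the dotted line at 3 log2 CPM and the names of the 2 lowest and 2 highest genes to its right. The points narrow to the right in all panels, and Bmal2 and Scrn1 stand apart below.

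The departures of single genes recurred between pairs of libraries. Across the 252 members below 100 Mb with at least 3 log2 CPM, Pearson's r of the deviations from the median was 0.78 between pairs 1 and 2, 0.67 between pairs 1 and 3 and 0.75 between pairs 2 and 3. The values were 0.64, 0.73 and 0.67 for 104 members of the middle, 0.86, 0.81 and 0.79 for 36 members at the far end and 0.74, 0.62 and 0.68 for 8198 other genes. These correlations are across genes, which are not independent, and the pairs share no library. Between a member and the next one along the chromosome, the deviations correlated with r = 0.02 (251 neighbouring pairs), 0.08 (103) and −0.08 (35). Elsewhere r was 0.17 over 8181 neighbouring pairs, but there the deviations were from 1 median over all these autosomes. Shifts shared by neighbours could thus remain in that value, whereas the median of a stretch takes them off, so that it is not measured alike.

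By edgeR's quasi-likelihood test with an adjusted p below 0.1, 241 members below 100 Mb (71.1%), 20 of the middle (14.0%) and 32 at the far end (82.1%) were lower in KO EpiLCs, against 12.5% of all genes tested. Higher were 13, 11 and 0 members, against 11.8% of all genes tested. All 3 KO libraries lay below all 3 WT libraries for 255, 26 and 31 members and for 17.1% of all genes tested, and above them for 15, 16 and 0 members and 16.6% of all genes tested. The bounds were set on the same ratios, so that nothing is read from these counts. A second fit took the median shift of each stretch off the KO libraries, so that it shows which genes departed from their neighbours. It left 40 members lower and 49 higher than the shift below 100 Mb, 16 and 16 in the middle and 6 and 5 at the far end. Over all genes tested, 11.3% were lower and 11.5% higher in that fit. The number that departed in either direction at the far end was 11 and fell to 6 without KO replicate 1 or KO replicate 3 and to 7 without WT replicate 3, and that of the middle went from 32 to 19 without KO replicate 1.

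Members below 100 Mb with the most counts carried the shift closely. Serbp1, an RNA-binding protein of ribosomes, had 2452, 2638 and 3057 CPM in WT and 1892, 1933 and 1768 CPM in KO, here and below in the order of replicates 1 to 3. Every KO library was below every WT library, with means of 2716 ± 310 and 1864 ± 85.8 CPM (SD, n = 3) and a log2 fold change of −0.54 (SE 0.10). Cct7, a subunit of the chaperonin that folds actin and tubulin, had 1316, 1531 and 1348 CPM in WT and 963, 964 and 891 CPM in KO, again without overlap, for a log2 fold change of −0.57 (SE 0.10). Mkrn1, a ubiquitin ligase, had 772, 918 and 807 CPM in WT and 578, 609 and 582 CPM in KO, or −0.50 (SE 0.10), and Cnbp, which binds single-stranded nucleic acids, −0.34 (SE 0.10). All 4 departed from the median of their stretch by at most 0.20. Per kilobase of exon, their mean levels in WT were 134 CPM for Serbp1, 190 for Cct7, 165 for Mkrn1 and 115 for Cnbp. Such abundant genes have processed copies elsewhere in the genome that can take part of their reads, which makes the counts uncertain.

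Scrn1, which encodes secernin 1, was farthest below the shift. It had 30.5, 30.2 and 28.6 CPM in WT and 5.59, 5.09 and 7.07 CPM in KO, with every KO library below every WT library. Its log2 fold change of −2.33 (SE 0.16) was 1.79 below the median of the stretch. Dysf, the membrane repair protein dysferlin, had 50.2, 32.8 and 34.4 CPM in WT and 9.48, 9.33 and 14.5 CPM in KO, with a log2 fold change of −1.81 (SE 0.19). Hdac11, a histone deacetylase, and M1ap, a gene of male meiosis, followed among members with at least 3 log2 CPM, with −1.42 (SE 0.18) and −1.35 (SE 0.16), and in both all KO libraries were below all WT libraries.

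Among members below 100 Mb with at least 3 log2 CPM, the 4 farthest above the shift were higher in KO EpiLCs. Trh, the precursor of thyrotropin-releasing hormone, had 47.3, 59.4 and 49.1 CPM in WT and 80.5, 110.1 and 90.5 CPM in KO, without overlap. Its log2 fold change was 0.85 (SE 0.12), which is 1.39 above the median of its stretch. Cntnap2, a neuronal adhesion molecule of the neurexin family, had 3.28, 8.58 and 8.73 CPM in WT and 12.1, 13.5 and 11.6 CPM in KO, with 0.86 (SE 0.25), and WT replicate 1 lay apart from the other WT libraries. Without that library its log2 fold change was 0.51. Mdfic, a regulator of transcription, rose by 0.77 (SE 0.21) and the secreted metalloprotease Adamts9 by 0.55 (SE 0.14), with every KO library above every WT library. Without WT replicate 1, Mdfic had 0.55 and Adamts9 0.52.

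Of the 4 members with the most counts in the middle, 3 did not pass the test and Chd4 was lower. Rpl32, a protein of the large ribosomal subunit, had 1401, 1747 and 1467 CPM in WT and 1484, 1805 and 1536 CPM in KO. Fkbp4, a co-chaperone of steroid receptors, had 1370, 1541 and 1334 CPM in WT and 1397, 1522 and 1394 CPM in KO. For Gapdh, the glycolytic enzyme often used as a loading reference, the values were 1224, 994 and 850 CPM in WT and 958, 1021 and 919 CPM in KO. In all 3 the ranges of WT and KO libraries overlapped, and the log2 fold changes were 0.06 (SE 0.11), 0.02 (SE 0.10) and −0.08 (SE 0.12). Chd4, the remodelling ATPase of the NuRD complex, had 921, 962 and 931 CPM in WT and 774, 790 and 830 CPM in KO, without overlap, and fell by 0.23 (SE 0.090). Per kilobase of exon, the WT means of these 4 genes were 1050, 377, 143 and 102 CPM.

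Departures in the middle went both ways. Hebp1, a heme-binding protein, had 16.1, 27.7 and 29.0 CPM in WT and 53.7, 70.7 and 64.6 CPM in KO, without overlap. Its log2 fold change was 1.38 (SE 0.17). Tmem40, a transmembrane protein, rose by 0.98 (SE 0.16), Emp1, an epithelial membrane protein, by 0.62 (SE 0.22), and Ptpn6, the tyrosine phosphatase SHP-1, by 0.51 (SE 0.14). Without WT replicate 1, Hebp1 had 1.15, Tmem40 1.10, Emp1 0.41 and Ptpn6 0.39. Slc2a3, the glucose transporter GLUT3 that lies beside Nanog, had 398, 564 and 535 CPM in WT and 243, 266 and 367 CPM in KO. All KO libraries were below all WT libraries, with a log2 fold change of −0.77 (SE 0.14). Tapbpl, a relative of the antigen-processing protein tapasin, fell by 0.92 (SE 0.19), the chemokine gene Cxcl12 by 0.82 (SE 0.19) and the alpha-tubulin gene Tuba3a by 0.67 (SE 0.10). Tuba3a and Tuba3b, the latter at the far end, are close copies of each other between which counting could have divided reads, so that their values are uncertain.

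Of the 4 members with the most counts at the far end, 3 lay near the shift and Etnk1 lay above it. Sinhcaf, a subunit of the SIN3 and HDAC complex, had 551, 598 and 616 CPM in WT and 458, 444 and 395 CPM in KO. Resf1, a factor that silences retroelements, had 438, 344 and 442 CPM in WT and 309, 276 and 276 CPM in KO. Neither gene showed an overlap between WT and KO libraries, and the log2 fold changes were −0.44 (SE 0.097) and −0.51 (SE 0.11). Rps4l, a ribosomal protein gene whose reads can be shared with related copies, had −0.47 (SE 0.10). Etnk1, which phosphorylates ethanolamine for phospholipid synthesis, had 440, 406 and 539 CPM in WT and 380, 416 and 474 CPM in KO, ranges that overlapped, and a log2 fold change of −0.13 (SE 0.11), 0.38 above the median. The other members farthest above the median among those with at least 3 log2 CPM were Etfrf1, a regulator of mitochondrial electron transfer flavoprotein, with 0.12 (SE 0.16), Tm7sf3, a membrane protein, with −0.09 (SE 0.11), and Klhl42, an adaptor of a ubiquitin ligase, with −0.14 (SE 0.12). Etfrf1 overlaps annotated genes on the other strand.

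Bmal2, a partner of the circadian factor CLOCK, was the gene farthest below. It had 30.7, 27.7 and 30.9 CPM in WT and 6.81, 5.01 and 7.22 CPM in KO, with no overlap. Its log2 fold change of −2.23 (SE 0.16) lay 1.72 below the median of the stretch. The next lowest among members with at least 3 log2 CPM were Tuba3b with −0.96 (SE 0.16), Etfbkmt, a methyltransferase of electron transfer flavoprotein, with −0.96 (SE 0.14), and Ccdc91, a protein of vesicle transport, with −0.86 (SE 0.12), each without overlap between WT and KO libraries.

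**Figure D5:**
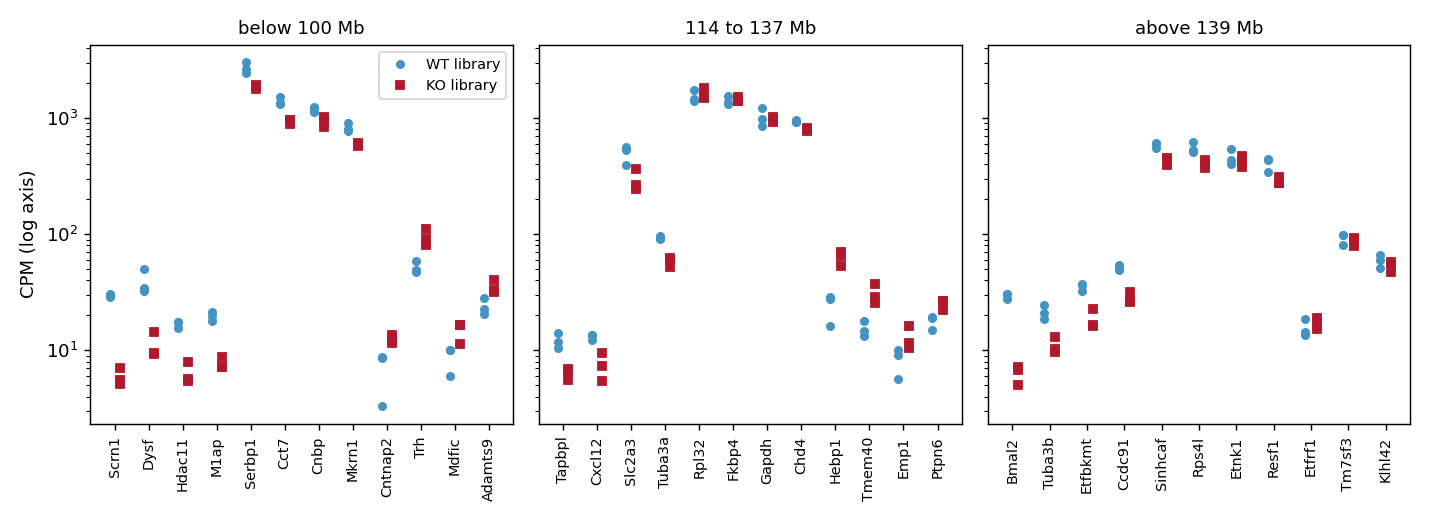
CPM on a log axis in each of the 3 WT (circles) and 3 KO (squares) libraries for the 4 lowest, the 4 most counted and the 4 highest named genes of each stretch, left to right (Etnk1 is in both of the last classes at the far end). CPM are not corrected for length, so that libraries can be compared within a gene and not between genes; KO squares lie below the WT circles for Serbp1 and Sinhcaf and among them for Rpl32.

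Members were also grouped by what they do, on 8 lists. The counts of lower genes on a list stand beside 71.1% of all members below 100 Mb, 14.0% in the middle, 82.1% at the far end and 12.5% of all genes tested, and since the stretches were chosen on these ratios, nothing is read from them. Of 27 genes for RNA processing and protein synthesis, 24 were members. The 20 below 100 Mb, which included the splicing proteins Snrpg and Lsm3 and the translocon subunit Sec61a1, were all under 0, 18 of them past the test, with a median of −0.49 and a range of −0.81 to −0.19. The 4 in the middle had a median of 0.03 with none past the test in either direction. Gars1, the glycyl-tRNA synthetase, was the lowest, with 533, 605 and 533 CPM in WT and 332, 319 and 306 CPM in KO, and a log2 fold change of −0.81 (SE 0.095). The libraries of the 2 genotypes did not overlap.

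For energy metabolism, 21 of 24 listed genes were members. Below 100 Mb, 11 of 13 were lower and 1 higher, with a median of −0.43, in the middle 2 of 6 were lower, with a median of −0.13, and at the far end both members were lower, Ldhb, a subunit of lactate dehydrogenase, by 0.55 (SE 0.13) and Bcat1, which transaminates branched-chain amino acids, by 0.46 (SE 0.12). Hk2, a hexokinase that starts glycolysis, had 231, 246 and 248 CPM in WT and 110.1, 99.6 and 127 CPM in KO. No libraries overlapped, and the log2 fold change of −1.11 (SE 0.10) was 0.57 below the shift. Bpgm, which makes bisphosphoglycerate, had −0.97 (SE 0.13). In the middle, Slc2a3 and the neuronal enolase Eno2 were the 2 lower genes.

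For receptors and RAS signalling, 17 of 18 listed genes were members. Below 100 Mb, 4 of 7 were lower, with a median of −0.58. Of these, Tgfa, a ligand of the EGF receptor, had −1.88 (SE 0.31) and the Eph receptor Epha1 −1.11 (SE 0.19). Tgfa was also among the members with the lowest counts, with 0.810 to 1.58 CPM in KO and 4.33 to 4.87 CPM in WT libraries. The kinase Braf had −0.15 (SE 0.12) and stood above the shift. In the middle 1 of 8 was lower, the plexin Plxnd1 with −0.73 (SE 0.25), and 1 higher, Ptpn6. Both members at the far end were lower, among them the kinase Stk38l with −0.43 (SE 0.11).

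Chromatin genes were members for 17 of 18. Below 100 Mb 5 of 8 were lower, with a median of −0.46. Ezh2, the methyltransferase of Polycomb repressive complex 2, had 117.7, 136.7 and 136.0 CPM in WT and 85.3, 90.3 and 90.9 CPM in KO. With no overlap of libraries, its log2 fold change of −0.55 (SE 0.099) differed from the shift by 0.014. Smarcad1, a chromatin remodeller, had 445, 354 and 482 CPM in WT and 442, 407 and 404 CPM in KO, overlapping ranges, and a log2 fold change of −0.03 (SE 0.11), 0.50 above the shift. Kdm3a, a histone demethylase, had −0.16 (SE 0.10). In the middle Chd4 alone of 8 was lower and none higher, with a median of 0.08, and Aebp2, a Polycomb protein at the far end, had −0.34 (SE 0.095).

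Of 16 listed cell cycle and DNA repair genes, 14 were members and 11 of these lie in the middle. There, 4 were lower: the condensin subunit Ncapd2 by 0.31 (SE 0.091), the CDK inhibitor Cdkn1b by 0.36 (SE 0.11), the phosphatase Dusp16 by 0.41 (SE 0.13) and the factor Tead4 by 0.74 (SE 0.23). Ncapd2 had 263 to 275 CPM in WT and 213 to 222 CPM in KO libraries, which did not overlap. The median of the 11 was −0.07. Below 100 Mb, Mcm2, a subunit of the replicative helicase, had 775, 882 and 754 CPM in WT and 533, 577 and 551 CPM in KO, without overlap, and a log2 fold change of −0.54 (SE 0.096) that equalled the shift to within 0.001. Mad2l1, of the spindle checkpoint, had −0.55 (SE 0.096).

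Of 20 adhesion and cytoskeleton genes, 16 were members, 11 of them below 100 Mb, where 9 were lower and 1, Cntnap2, higher. Capg, which caps actin filaments, had 105, 103 and 86.7 CPM in WT and 45.9, 32.8 and 41.7 CPM in KO, without overlap, and fell by 1.29 (SE 0.12), and the junction scaffold Magi1 had −0.97 (SE 0.11). Podxl, a sialomucin of the cell surface, had 33.9, 46.1 and 45.1 CPM in WT and 49.6, 51.2 and 51.0 CPM in KO, with a log2 fold change of 0.28 (SE 0.12) that did not pass the test, although the libraries did not overlap. It stood 0.82 above the median of its stretch and departed from it in the second fit. None of the 4 in the middle passed. Of 18 zinc finger genes, 14 were members: 6 of 9 below 100 Mb were lower, with a median of −0.515, and 1 of 5 in the middle was, with a median of −0.03. In one cluster, Zfp398, Zfp282, Zfp212, Zfp777 and Zfp746 were lower, with −0.85 to −0.51, while Zfp786 with −0.38 (SE 0.25) and Zfp956 with −0.26 (SE 0.14) did not pass the test. Zfp467 nearby had 0.33 (SE 0.16) and did not pass it either, but it stood 0.86 above the median of its stretch and departed from it in the second fit.

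Around Nanog, 9 of 10 listed neighbours were members, all in the middle, with a median of −0.061. Slc2a3 and Rimklb were lower, with −0.77 and −0.35, the latter having −0.18 without WT replicate 3 and −0.20 without KO replicate 2, and Apobec1, an RNA-editing deaminase, was higher by 0.39 (SE 0.13), with 25.8 to 27.4 CPM in KO libraries above 19.3 to 20.7 CPM in WT libraries. The other 6, among them the Polycomb gene Phc1 with 0.04 (SE 0.10) and the growth factor Gdf3 with −0.20 (SE 0.098), did not pass the test.

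The genes left out by name were described once. Below 100 Mb, the imprinted genes Sgce, Peg10, Mest and Copg2 had log2 fold changes of −1.03, −0.41, −1.82 and −0.70, the biosynthetic genes Asns and Mthfd2 −0.72 and −1.03, the DNA demethylase Tet3 −0.34 and the factor Foxp1 −1.48. Without KO replicate 2 and without KO replicate 3, Peg10 had −0.21 and −0.62. No Hoxa gene had 10 counts in every library. In the middle, Dppa3 had 0.34 and Nanog 0.75.

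Most protein-coding genes of the chromosome that were not members had few or no counts. Below 100 Mb, 171 of 647 genes not left out by name had counts but fewer than 10 in some library, and all others that were not members had no count. In the middle, 90 of 308 had fewer than 10 counts in some library and 75 no count, and at the far end 23 and 6 of 68. Sensory and immune receptor families made up many of the genes with no count: 41 of 52 vomeronasal and 21 of 24 olfactory receptor genes below 100 Mb, and 22 of 24 Tas2r taste receptor and 19 of 26 killer cell lectin-like receptor genes in the middle. A count of 0 allows up to 3 counts, or 0.204 to 0.273 CPM in a library, as far as counting error goes. At the minimum of 10 counts, the members with exactly 10 in their lowest library were Atp6v0a4, Cped1, Dync1i1, Pde1c, Tgfa, Umad1 and Vwde below 100 Mb and Lpar5 in the middle, with log2 fold changes from −1.88 to 1.41. The genes that missed it by 1 count were Plxna4, Klrg2, Tmem139 and Lrrc61 below 100 Mb and Ntf3 and Pzp in the middle, from −1.25 to 0.87. Tested genes with a mean of at least 10 counts but fewer in some library had a median of −0.64 below 100 Mb (29 genes) and 0.08 in the middle (9 genes).

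Genes of other kinds in the same stretches did not all carry the shift. The 26 pseudogenes below 100 Mb with at least 10 counts in each library had a median log2 fold change of −0.003, 13 of them under 0, and the 14 lncRNA genes one of −0.15, 11 of them under 0. Past the test were 1 pseudogene that was lower and 2 that were higher, and 3 lncRNA genes that were lower. Of all genes tested, 12.5% were lower and 11.8% higher, and nothing is read from so few genes. At the far end, 3 lncRNA genes had a median of −0.67 and 2 pseudogenes of 0.03. Reads on a pseudogene can come from its parent gene on another chromosome, and the part of such reads in these values was not tested.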

How the data were processed

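Total RNA of 3 WT and 3 KO EpiLC cultures was sequenced from stranded libraries after removal of ribosomal RNA. The authors checked reads with FastQC, trimmed them, mapped them to GRCm39 with STAR and deposited raw counts per gene without normalization, and DESeq2 is also named in the submitters' notes. Versions, annotation release, use of strand and treatment of reads with several matches are not given in the sources used here. Identifiers were matched to GENCODE M39 (54749 found, 667 not), and a gene was placed by its lowest coordinate.

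Differential expression was tested on the deposited counts in R 4.3.3 with edgeR 4.0.16 (limma 3.58.1): filterByExpr (15746 genes left), TMM, quasi-likelihood test, genotype as the only term, Benjamini-Hochberg adjustment over all genes tested, threshold 0.1. Standard errors came from the F statistic. CPM are counts scaled to the TMM-normalized library total. The second fit added the median of each stretch, or that of all other genes, as an offset of the KO libraries. Python 3.11.15, pandas 2.3.3 and numpy 2.4.6 were used for summaries, and the fits were tested on simulated data. The common dispersion was 0.0137, a biological coefficient of variation of 11.7%, and totals of 10995505 to 14680930 counts set the precision given by the standard errors.

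Genes named were, per stretch, the 4 highest and 4 lowest among members with a mean of at least 3 log2 CPM, the 4 with the most counts, those nearest the bounds and the minimum count, and the genes of 8 lists. Members, bounds and lists were chosen with earlier results of these data known. The marker lists, all given, check the labels. Values of some listed genes are not reported here.

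Replicates share numbers, and the series text calls them paired. Deviations from the group means of libraries with the same number correlated with r = 0.21, 0.26 and 0.11 over 13878 genes, and other combinations with -0.19 to -0.03. Deviations from a group mean sum to 0, so that the negative values in part follow from the positive ones. The positive correlations were weak, and whether the numbers pair the libraries was not tested. Libraries of a group were not copies, the chi-square per degree of freedom being 6.31 to 10.6. Alternatives were RLE factors, library totals alone, TMM without chromosomes 6 and 16, other filters, DESeq2 1.42.0, a replicate block, each library left out, other minimum counts, the left-out genes put back, narrower bounds and an adjusted p below 0.05.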

Additional observations from a re-analysis of the deposited data

How the results depend on the processing

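Of 294 values recomputed for the 3 stretches under 18 alternatives, 272 stayed within the spread between replicates or, for counts of genes, within 1.5 times. The median log2 fold changes and the KO to WT ratios of the shares of counts stayed within it under every alternative run. With at least 100 counts in each library, the gene-wise spread was 0.235 below 100 Mb, 0.210 in the middle and 0.153 at the far end, 4 members were higher below 100 Mb and 7 in the middle, 11 were lower in the middle, and 55 and 17 departed from the median, fewer genes being members. With bounds drawn in, the middle had a spread of 0.217, 11 lower and 4 higher members and 16 that departed, again with fewer members. An adjusted p below 0.05 left 20 departing members in the middle.
Leaving out 1 library gave a spread of 0.284 to 0.335 below 100 Mb (0.331 without WT replicate 1 and 0.335 without KO replicate 3), 0.227 to 0.274 in the middle and 0.180 to 0.264 at the far end, 7 to 11 higher and 19 to 25 departing members in the middle, and 6 to 10 departing members at the far end. The cause of these changes was not tested. Of 2527 values of 195 named genes, 2479 stayed within 1 standard error, and the other 48 arose on leaving out a library. No gene past the test turned in sign. Genes near 0 or with few counts that were not past it did so, such as Gapdh with 0.07 without WT replicate 1, Rpl32 with −0.03 without KO replicate 2, Hrh1 with 0.20 without WT replicate 2 and Foxj2 with up to 0.09.

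With the replicate number as a block, 256 members were lower and 14 higher below 100 Mb, 26 and 15 in the middle and 33 and 0 at the far end, and 40 members in the middle and 12 at the far end departed from the medians. No count of calls of the stretches moved by over 1.5 times under the block. The shares of all genes tested under the block are not given here, so that nothing is read from the changes in these counts. Medians rest on 339, 143 and 39 genes and are firm to the spread between libraries, whereas a single gene of the class with the fewest counts below 100 Mb has a median standard error of 0.24, against 0.10 in the class with the most. With 1 KO clone, p-values rest only on the spread between cultures of that clone and of its parental line, and not on the spread between clones.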
